A study of Mus musculus with 5 samples.

Results

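The 10 receptors and regulators by which T cells and natural killer (NK) cells are restrained or stimulated were followed across the leukocytes of mouse tumours: Pdcd1, Ctla4, Lag3, Tigit, Havcr2, Icos, Tnfrsf4, Tnfrsf9, Entpd1 and Tox. They are a list of named genes, 10 of the 20264 measured, and were described in annotated T cells, NK cells and myeloid cells. Live CD45+ leukocytes had been sorted from subcutaneous tumours and profiled with droplet 3' RNA libraries (10x Genomics), in which each captured transcript is counted as a unique molecular identifier (UMI). C57BL/6 mice carried 5555 melanoma tumours for 4 days, grown from Ptgs+/+ cells, from Ptgs-/- cells, or from Ptgs-/- cells in mice depleted of NK cells with anti-NK1.1 (clone PK136) and anti-Asialo GM-1. BALB/c mice carried CT26 tumours for 12 days, and the name of that library ends in vehicle, an agent not described further in the labels. The Ptgs genes encode the cyclooxygenases that begin prostaglandin synthesis, and the labels give the Ptgs genotype to the injected tumour and not to the mice. The number of mice behind each library is not given in the sources used here. Each group is 1 library, so differences between groups have no replicate check, no test is given, and all 95% intervals cover counting error only.

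Checkpoint receptors tune a T cell's response to antigen. PD-1, CTLA-4, LAG-3, TIGIT and TIM-3 dampen it, and regulatory T cells (Tregs) carry CTLA-4 constitutively, whereas ICOS, OX40 and 4-1BB are costimulators induced on activation. In tumours several of them accumulate on chronically stimulated CD8 T cells, together with the transcription factor TOX, and some are also made by NK cells, dendritic cells (DCs) and macrophages.

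After cells without annotation and cells whose barcode another cell carried were left out (36 cells, and 18 cells holding 9 barcodes), the libraries held 3262 Ptgs+/+, 4677 Ptgs-/-, 3879 NK-depleted Ptgs-/- and 8987 CT26 cells, with medians of 3634, 4562, 5463 and 3822 UMIs per cell. Annotated T cells numbered 66, 214, 109 and 767 in that order, and their medians were 1641.5, 2076.5, 2372 and 1705 UMIs. Annotated NK cells numbered 137, 510, 45 and 1346, with medians of 1835, 2096, 2517 and 2240.5 UMIs. Monocytes and macrophages numbered 2360, 3184, 3108 and 5180, with medians of 3701, 4958, 5490.5 and 4358.5 UMIs. Because deeper cells show more genes, shares of cells are also given after thinning each cell to 1000 UMIs, which left out 5, 3, 0 and 77 T cells and 9, 31, 8 and 47 NK cells.

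Both lymphocyte labels were checked against marker genes. In the T cell class at least 9 of 10 T cell markers were seen in at least 10% of cells of every library, and a UMI of the T cell receptor complex was found in 61 of 66, 199 of 214, 97 of 109 and 739 of 767 cells. The class may be mixed. All 6 markers of group 2 innate lymphoid cells reached 10% of T cells in each 5555 library. Their summed level was 3044, 2980 and 4089 CPM (UMIs per 1000000 UMIs of a cell), against 1675 CPM and 3 of 6 in CT26. Whether innate lymphoid cells or T cells held these transcripts was not tested. Gamma-delta T cell genes were unevenly spread. A UMI of Trdc or Tcrg-C1 was found in 39.4% of T cells in Ptgs+/+, 17.8% in Ptgs-/-, 14.7% in the NK-depleted library and 33.0% in CT26. In the NK class all 10 NK markers reached 10% of cells in Ptgs+/+, Ptgs-/- and CT26, at a summed 15372, 14681 and 21267 CPM. The 45 cells annotated as NK cells in the NK-depleted library went against their label. Only 3 of 10 NK markers reached 10% of them, at a summed 354 CPM, and Ncr1, Gzma and Eomes had 0 UMIs, whereas all 10 T cell markers did, at 3757 CPM. Of these 45 cells 43 held a UMI of the T cell receptor complex, 23 held Cd4 and 9 held Foxp3, and they are called here the cells labelled NK.

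**Figure D1:**
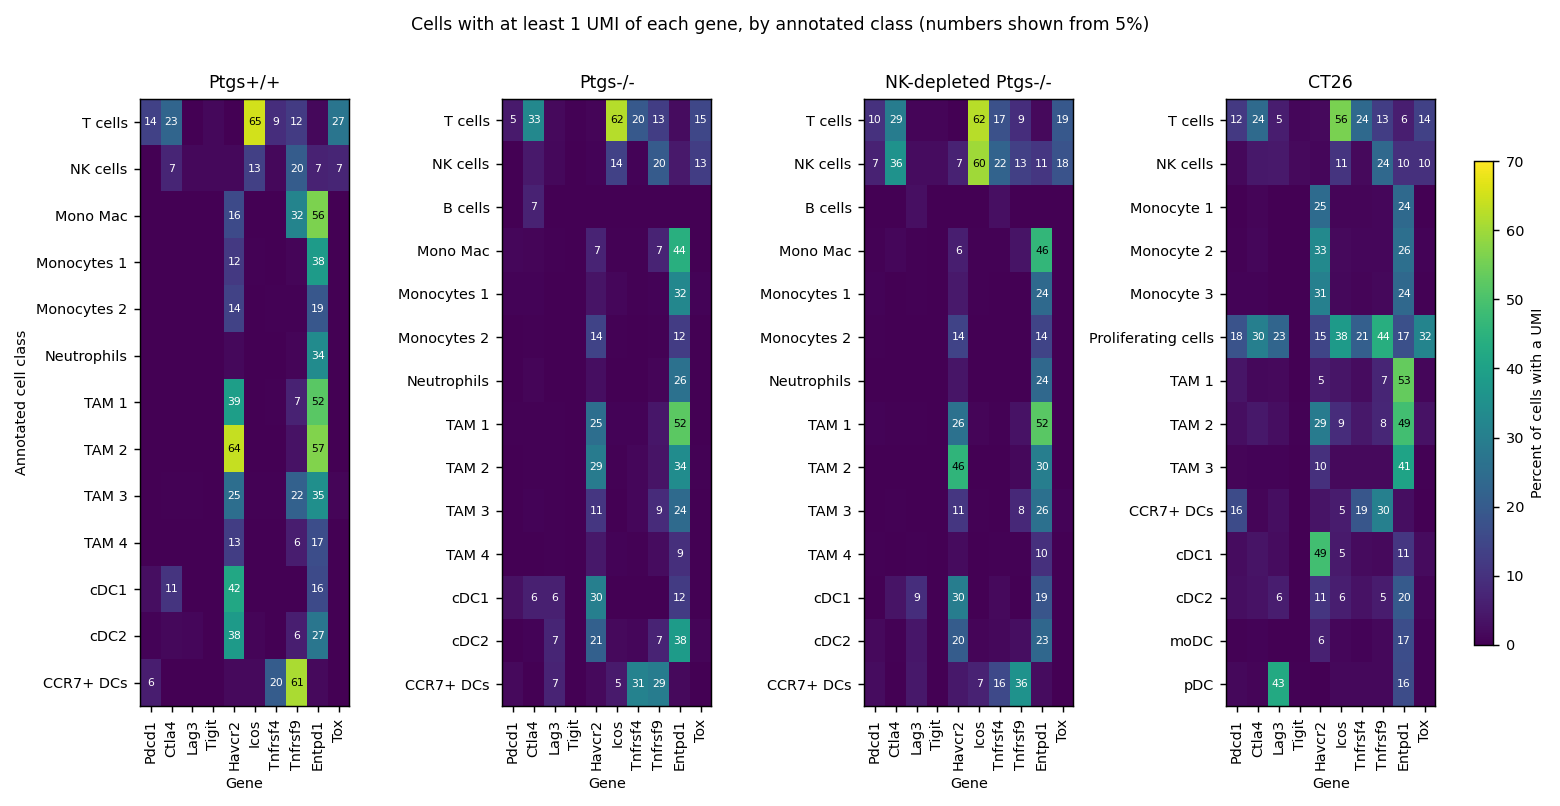
Percent of cells with at least 1 UMI of each gene (columns) in each annotated class with at least 30 cells (rows), in 1 panel per library; colour runs from 0 to 70 percent and shares from 5% are printed. Icos and Ctla4 are concentrated in T cells, Havcr2 and Entpd1 in myeloid classes, Tnfrsf9 in lymphocytes, CCR7+ DCs and some macrophage clusters, and the NK row of the NK-depleted library resembles its T cell row.

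Pdcd1 encodes PD-1, the receptor for PD-L1 and PD-L2 (chr1:94038305-94052553, minus strand, GRCm38). In T cells it had 13 UMIs in Ptgs+/+, 12 in Ptgs-/-, 23 in the NK-depleted library and 142 in CT26. Its mean level over T cells was 130, 24.7, 83.7 and 89.2 CPM, lowest in Ptgs-/-. The share of T cells with a Pdcd1 UMI was 13.6% (95% interval 6.43 to 24.3) in Ptgs+/+, 5.14% (2.59 to 9.01) in Ptgs-/-, 10.1% (5.15 to 17.3) in the NK-depleted library and 11.6% (9.42 to 14.1) in CT26. Without thinning the first 2 intervals overlap, although the point values differ. Thinned to 1000 UMIs the shares were 13.1%, 1.90%, 3.67% and 8.12%. The first 2 of these lay further apart than without thinning, and the overlap stated above does not cover them. Monocytes and macrophages served as the reference class, and their shares were 0.0424%, 0.314%, 0.483% and 1.25%, each below the T cell share of its library. They still held 1 of 22, 10 of 27, 16 of 55 and 83 of 395 Pdcd1 UMIs of the libraries. Of their Pdcd1 positive cells 1 of 1, 1 of 10, 1 of 15 and 26 of 65 held a Cd3 UMI. Whether these cells make Pdcd1 themselves was not tested. NK cells held 0, 1 and 37 Pdcd1 UMIs in Ptgs+/+, Ptgs-/- and CT26, and the cells labelled NK in the NK-depleted library 3.

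Much of the Pdcd1 signal of the T cell class lay in cells with a gamma-delta gene UMI (a cell without a UMI of a gene may still express it). Such a UMI does not by itself make a cell a gamma-delta T cell. In NK cells of Ptgs+/+, Ptgs-/- and CT26, 1 of the 4 gamma-delta markers also reached 10% of cells. T cells with a Trdc or Tcrg-C1 UMI held 7 of the 13 Pdcd1 UMIs in Ptgs+/+, 8 of 12 in Ptgs-/-, 9 of 23 in the NK-depleted library and 75 of 142 in CT26. In these gamma-delta gene positive cells Pdcd1 was found in 4 of 26, 7 of 38, 5 of 16 and 49 of 253. Within that group the Ptgs-/- share, 18.4%, was not below the Ptgs+/+ share of 15.4%. In the remaining T cells it was found in 5 of 40, 4 of 176, 6 of 93 and 40 of 514. No Pdcd1 UMI was seen in the 3, 20 and 10 Cd8a or Cd8b1 positive T cells of the 5555 libraries, numbers too small to show a low share, nor in the 7 Foxp3 positive cells of Ptgs+/+ and the 11 of the NK-depleted library. Across 41 combinations of class and library in 5555 tumours, the 2 genes whose log2 level followed Pdcd1 most closely were Sntb1 (Pearson's r 0.86) and Il17re (0.84), the latter an interleukin-17 receptor subunit. The points share libraries and depth.

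Ctla4 encodes CTLA-4, which competes with CD28 for CD80 and CD86 (chr1:60887000-60915832, plus strand). It had 83, 344, 128 and 395 UMIs in T cells of Ptgs+/+, Ptgs-/-, the NK-depleted library and CT26, at a mean of 773, 662, 495 and 307 CPM. The share of T cells with a UMI was 22.7% (13.3 to 34.7), 32.7% (26.5 to 39.4), 29.4% (21.0 to 38.8) and 24.2% (21.3 to 27.4). These intervals overlap. At 1000 UMIs per cell the shares were 21.3%, 23.7%, 20.2% and 17.5%, and in monocytes and macrophages unthinned shares were 0.0424%, 0.503%, 0.225% and 1.76%. In CT26, 65 of the 91 monocytes and macrophages with Ctla4 also held a Cd3 UMI, against 6.22% of that class as a whole.

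Foxp3, the transcription factor that defines Tregs, marked the T cells in which Ctla4 was most often seen. Of Foxp3 positive T cells, 7 of 7, 26 of 30, 9 of 11 and 66 of 96 held a Ctla4 UMI in Ptgs+/+, Ptgs-/-, the NK-depleted library and CT26. Among T cells without a Foxp3 UMI the shares were 13.6%, 23.9%, 23.5% and 17.9%. The Foxp3 positive cells held 60 of 83, 166 of 344, 50 of 128 and 160 of 395 Ctla4 UMIs, while they made up 10.6%, 14.0%, 10.1% and 12.5% of the class. The gene whose level followed Ctla4 most closely was Cd3e (r 0.93), a subunit of the T cell receptor complex, followed by Acsbg1 (0.92). The 250 bases upstream of the RefSeq start of Ctla4, chr1:60908775-60909024 of GRCm38.p6, plus strand, are shown beside those of Tnfrsf4, chr4:156013445-156013694, plus strand, because T cells with a Foxp3 UMI had the higher share of either gene in each library, for Tnfrsf4 in Ptgs+/+ on only 2 of 7 cells. Capitals mark TTTCC, the reverse complement of GGAAA, the core that NFAT factors recognise.
Ctla4: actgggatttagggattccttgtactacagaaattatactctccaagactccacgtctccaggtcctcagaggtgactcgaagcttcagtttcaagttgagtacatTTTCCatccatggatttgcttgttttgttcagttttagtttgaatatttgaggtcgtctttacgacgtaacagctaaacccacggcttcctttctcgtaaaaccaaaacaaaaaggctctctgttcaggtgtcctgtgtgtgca
Tnfrsf4: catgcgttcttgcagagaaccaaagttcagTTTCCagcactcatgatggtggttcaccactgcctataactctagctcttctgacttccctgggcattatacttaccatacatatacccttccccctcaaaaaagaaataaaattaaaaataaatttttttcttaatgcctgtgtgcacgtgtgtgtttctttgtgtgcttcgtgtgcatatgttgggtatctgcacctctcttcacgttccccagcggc
Both strands were searched, and GGAAA was found in 55.6% of 32851 mouse promoters of this length, so the match is common. The forkhead motif GTAAACA, found in 3.17% of these promoters, and the AP-1 motif TGANTCA, found in 6.75%, occurred in neither window. RefSeq promoters were matched for 7 of the 10 genes, and none is shown for Lag3, Tox and Icos.

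Lag3 and Tigit were near the limit of detection in lymphocytes of 5555 tumours. LAG-3, a receptor for MHC class II (chr6:124904361-124911705, minus strand), had 0, 6, 1 and 59 UMIs in T cells, seen in 0%, 1.87%, 0.917% and 5.48% of cells. The 0 of 66 cells in Ptgs+/+ allow a share of up to 4.55%, the share that 3 cells would make. In Ptgs-/-, 3 of the 20 Cd8a or Cd8b1 positive T cells held 5 of the 6 Lag3 UMIs. Monocytes and macrophages held Lag3 in 0.0847%, 0.283%, 0.354% and 0.869% of cells. In NK cells Lag3 had 3 UMIs in Ptgs+/+, 8 in Ptgs-/- and 87 in CT26, the last of these in 4.90% of cells, and the cells labelled NK held 2. TIGIT, which binds CD155 (chr16:43648867-43664146, minus strand), had 1, 1, 1 and 9 UMIs in T cells, 2, 1 and 24 in NK cells of Ptgs+/+, Ptgs-/- and CT26, 1 in the cells labelled NK, and no UMI in monocytes and macrophages of the 5555 libraries. At these counts no difference between libraries in either gene was detectable in T cells of 5555 tumours.

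Lag3 was also present in DCs. In conventional type 2 DCs (cDC2) it had 6, 53 and 30 UMIs in Ptgs+/+, Ptgs-/- and the NK-depleted library, in 1.32%, 7.27% and 4.19% of cells, and 45 UMIs in 5.66% of CT26 cDC2. The cDC2 level was higher by size in Ptgs-/- than in Ptgs+/+, by 1.20 on the log2 scale, and the UMI ratio was 5.36 (2.31 to 15.3). Thinning to 1000 UMIs gave shares of 0%, 1.91% and 0.985%, which rest on few cells. In CT26 the plasmacytoid DCs stood first among 14 classes, with 129 Lag3 UMIs, a mean of 156.5 CPM and a share of 42.6%. Plasmacytoid DC markers in 5555 cDC2 summed to 339, 490 and 334 CPM, with 1 of 4 markers in at least 10% of cells, and their part in the Lag3 result was not tested. The genes whose level followed Lag3 most closely were Dtl (r 0.78) and Hells (0.72), both genes of dividing cells. For Tigit they were Lef1 (0.90) and Cd96 (0.88), on no more than 2.22% of cells of any class.

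Icos encodes the CD28-related costimulator of helper T cells and neighbours Ctla4 (chr1:60977927-61000320, plus strand). It had 151, 456, 208 and 1013 UMIs in T cells, at means of 1288, 971, 766 and 718 CPM. The share of T cells with an Icos UMI was 65.2% (52.4 to 76.5), 62.1% (55.3 to 68.7), 62.4% (52.6 to 71.5) and 55.8% (52.2 to 59.4), and the 3 intervals of 5555 tumours overlap. After thinning they were 57.4%, 51.7%, 44.0% and 45.1%. Monocytes and macrophages held it in 0.127%, 0.660%, 0.418% and 3.30% of cells. In CT26, 115 of these 171 cells held a Cd3 UMI. Icos was spread widely through the T cell class. It was seen in 6 of 7, 25 of 30, 10 of 11 and 80 of 96 Foxp3 positive cells, and in 62.7%, 58.7%, 59.2% and 51.9% of the others. NK cells held it less often than T cells in Ptgs+/+, Ptgs-/- and CT26, in 13.1%, 13.5% and 10.6%, and the intervals do not overlap those of T cells. Camk4 (r 0.97) and Bcl11b (0.96), the latter a T cell transcription factor, followed it most closely.

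Tnfrsf4 encodes OX40, a costimulator of the tumour necrosis factor receptor family (chr4:156013843-156016612, plus strand). It had 12, 105, 34 and 473 UMIs in T cells, at means of 122, 216, 161 and 343 CPM, lowest in Ptgs+/+. The share of T cells with a UMI was 9.09% (3.41 to 18.7), 19.6% (14.5 to 25.6), 17.4% (10.8 to 25.9) and 23.9% (20.9 to 27.0). Only the intervals of Ptgs+/+ and CT26 do not overlap. At 1000 UMIs per cell the shares were 6.56%, 12.8%, 13.8% and 18.1%, and in monocytes and macrophages the unthinned shares were 0.169%, 0.660%, 0.257% and 1.99%. Foxp3 positive cells held it in 2 of 7, 19 of 30, 8 of 11 and 65 of 96, against 6.78%, 12.5%, 11.2% and 17.6% of T cells without a Foxp3 UMI. It was not seen in the 26, 38 and 16 gamma-delta gene positive T cells of the 5555 libraries. Its level followed that of Il2ra (r 0.97), the interleukin-2 receptor alpha chain of Tregs and activated T cells, and of Aebp2 (0.93).

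**Figure D2:**
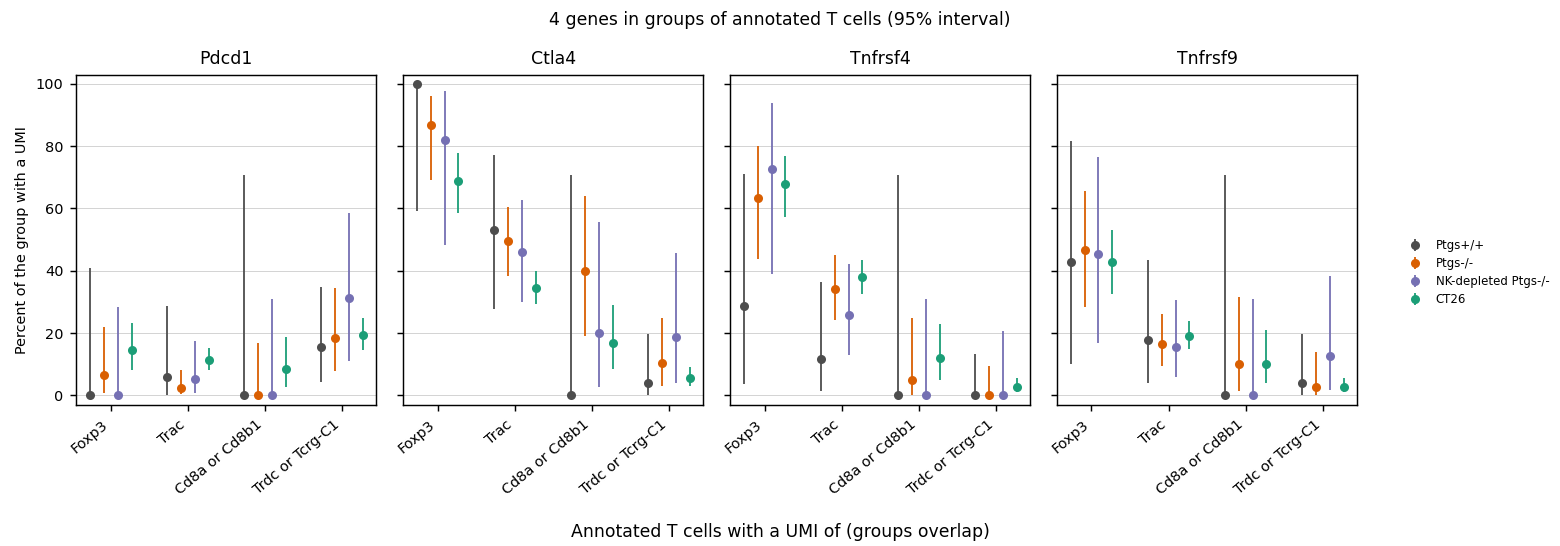
Percent of T cells with a UMI of Pdcd1, Ctla4, Tnfrsf4 or Tnfrsf9 (y axis) in overlapping groups of annotated T cells that hold a UMI of Foxp3, Trac, Cd8a or Cd8b1, and Trdc or Tcrg-C1 (x axis); points are libraries, bars 95% Clopper-Pearson intervals. Ctla4, Tnfrsf4 and Tnfrsf9 stand highest in Foxp3 positive cells in every library, with wide intervals where cells are few, and the Pdcd1 points are highest in the Trdc or Tcrg-C1 group.

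Outside T cells Tnfrsf4 was found in CCR7+ DCs, the migratory DCs that present antigen to T cells. These cells are annotated cDC3 in the 5555 libraries and actDC in CT26, and all 5 CCR7+ DC markers were seen in at least 10% of them in each library. Tnfrsf4 had 28, 34, 21 and 30 UMIs there, at means of 138, 111, 80.0 and 73.5 CPM. The shares of cells were 20.4%, 31.0%, 15.6% and 18.8%. In Ptgs+/+ the CCR7+ DC and T cell levels could not be told apart, at 98.8 CPM (65.7 to 142.9) and 109 CPM (56.4 to 190.6) by summed UMIs. In Ptgs-/- the T cell level was the higher, at 227 CPM (186 to 275) against 93.2 CPM (64.6 to 130.3). None of the 54, 58 and 45 CCR7+ DCs of the 5555 libraries held a Cd3 UMI, with or without a UMI of the 10 genes. The absence of Cd3 is thus not particular to the Tnfrsf4 positive cells.

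Tnfrsf9 encodes 4-1BB, an activation-induced costimulator of T and NK cells (chr4:150914562-150946102, plus strand). T cells held 24, 99, 24 and 216 UMIs, at means of 247, 221, 107 and 147 CPM, and shares of 12.1%, 12.6%, 9.17% and 12.8% whose intervals overlap. At 1000 UMIs per cell they were 9.84%, 10.4%, 3.67% and 9.28%. Foxp3 positive T cells held it in 3 of 7, 14 of 30, 5 of 11 and 41 of 96, against 8.47%, 7.07%, 5.10% and 8.49% of the others. NK cells held 66, 187 and 531 UMIs in Ptgs+/+, Ptgs-/- and CT26, in 20.4% (14.0 to 28.2), 20.2% (16.8 to 23.9) and 23.6% (21.4 to 26.0) of cells. NK cells with a UMI of Ncr1 or Klrb1c, which encode NKp46 and NK1.1, held it at much the same rate, in 23 of 100, 91 of 425 and 276 of 1170. Monocytes and macrophages held Tnfrsf9 in 6.23%, 3.80%, 1.80% and 3.34% of cells, so that this class gives no background for the gene, and its clusters are described with the myeloid cells. By mean CPM the order in Ptgs+/+ was CCR7+ DCs (356), Mono Mac (253), T cells (247) and NK cells (174), and by summed UMIs the intervals of the last 3 overlap. Il7r (r 0.85) and Ccl5 (0.76) followed it most closely.

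Entpd1 encodes CD39, the ectoenzyme that breaks down extracellular ATP towards adenosine (chr19:40612366-40741602, plus strand). In T cells it had 1, 5, 2 and 55 UMIs, in 1.52%, 2.34%, 1.83% and 6.00% of cells. In CT26 it was seen in 14 of 96 Foxp3 positive T cells. NK cells of Ptgs+/+, Ptgs-/- and CT26 held 13, 31 and 149 UMIs, in 6.57%, 4.90% and 9.81% of cells, and 5 of the 45 cells labelled NK held it. No class in these libraries should lack Entpd1, so these shares have no background beside them, and the part of free RNA in them was not tested. Its 2 closest genes were Ccr1 (r 0.92) and C5ar1 (0.91), both myeloid chemoattractant receptors.

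Tox encodes a nuclear factor tied to persistent T cell stimulation and to lymphocyte development (chr4:6686353-6991557, minus strand). It had 23, 46, 25 and 135 UMIs in T cells, at means of 192, 98.8, 96.7 and 98.3 CPM, highest in Ptgs+/+. The share of T cells was 27.3% (17.0 to 39.6), 15.0% (10.5 to 20.4), 19.3% (12.3 to 27.9) and 13.6% (11.2 to 16.2). Without thinning the intervals of Ptgs+/+ and CT26 do not overlap, and those of the 5555 libraries do. At 1000 UMIs per cell the shares were 23.0%, 8.06%, 9.17% and 8.55%, against 0.0847%, 0.188%, 0.193% and 1.12% of monocytes and macrophages without thinning. The thinned Ptgs+/+ and Ptgs-/- shares lay further apart than the unthinned ones, and the overlap stated above does not cover them. Gamma-delta gene positive T cells held it in 9 of 26, 6 of 38, 6 of 16 and 37 of 253. NK cells held 12, 76 and 148 UMIs in Ptgs+/+, Ptgs-/- and CT26, in 7.30%, 12.7% and 9.66% of cells, and the cells labelled NK held 14, in 17.8%. Cd96, a receptor gene of T and NK cells, was among the genes that followed it closely (r 0.98).

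**Figure D3:**
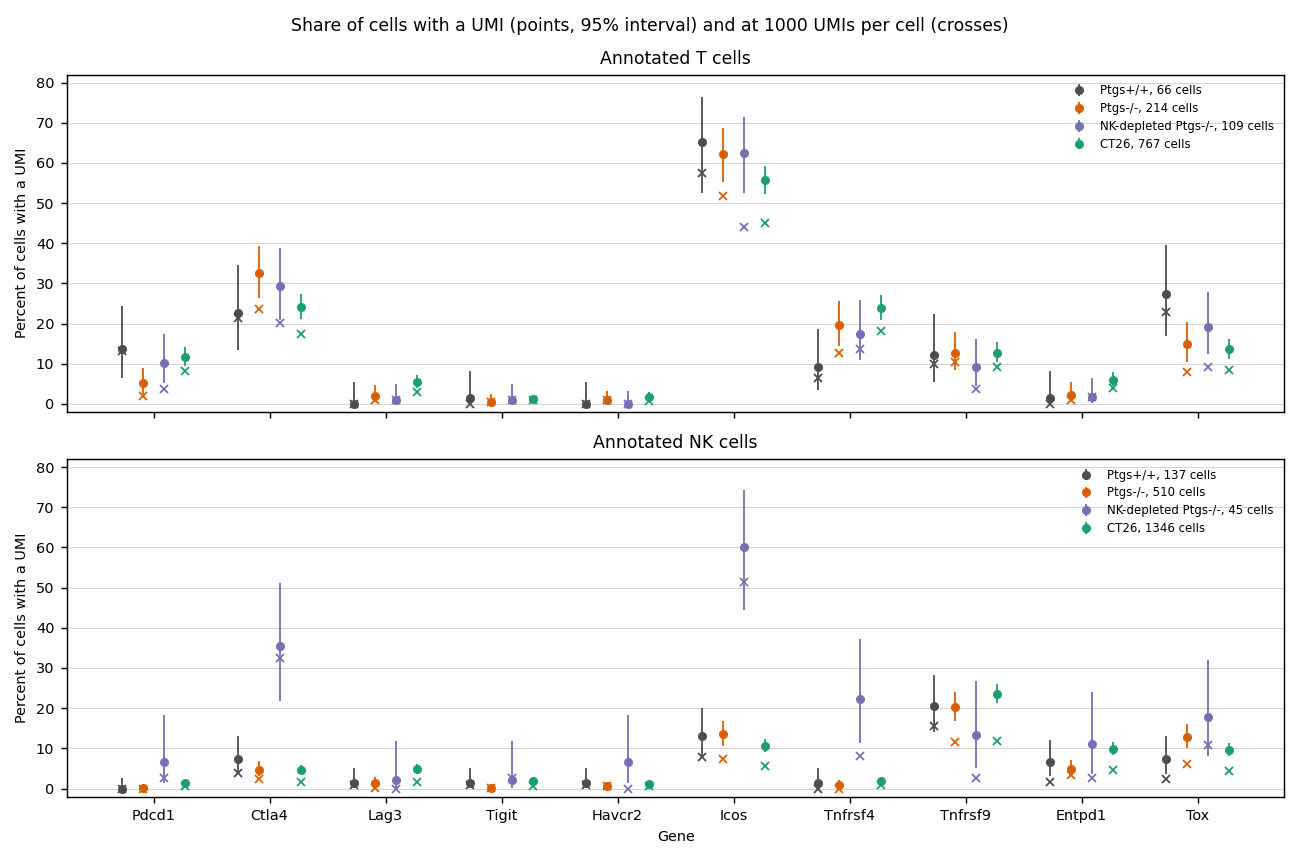
Percent of annotated T cells (top) and NK cells (bottom) with a UMI of each gene (x axis), by library; points with bars are shares with 95% Clopper-Pearson intervals and crosses are shares at 1000 UMIs per cell. In T cells the libraries' intervals overlap for most genes, and in the lower panel the NK-depleted library, whose cells carry T cell markers, stands far above the others for Ctla4, Icos and Tnfrsf4.

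Ptgs-/- and Ptgs+/+ T cells were compared by the log2 ratio of mean CPM plus 5, and a gene was counted as higher or lower by size where it passed 1.5-fold. Of the 10 genes 6 could be compared, those with a UMI in at least 5% of T cells of either library; Lag3, Tigit, Havcr2 and Entpd1 could not. Of 6, 1 was higher, 2 were lower and 3 lay within 1.5-fold. Among all 5819 genes compared the same way 23.2% were higher and 18.5% lower, so that 1 and 2 of 6 are near the background. Pdcd1 was lower by size, with a log2 difference of -2.18, and the UMI ratio of Ptgs+/+ to Ptgs-/- was 4.56 (1.92 to 10.9). For Tox the difference was -0.92 and that ratio 2.10 (1.22 to 3.54). Tnfrsf4 was higher by size, with a difference of 0.80 and a UMI ratio of Ptgs-/- to Ptgs+/+ of 2.08 (1.14 to 4.15). Ctla4 (-0.22), Icos (-0.41) and Tnfrsf9 (-0.16) lay within 1.5-fold. The median over the 6 genes was -0.31, against 0.04 over all genes compared.

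The share of gamma-delta gene positive T cells moved with these differences, and their 4 markers summed to 1391 CPM in Ptgs+/+ T cells and 614 CPM in Ptgs-/- T cells. Without these cells Pdcd1 was still lower, by a log2 difference of -2.67, as was Tox (-0.65), whereas Tnfrsf4 lay within 1.5-fold (0.37) and Ctla4 passed it (-0.68), so that 0 genes were higher and 3 lower. With T and NK cells taken as 1 class 0 genes were higher and 0 lower. Among the related receptors 2 of 11 were higher and 1 lower. These included Cd28, the primary costimulatory receptor of T cells, with 26 UMIs in Ptgs+/+ and 292 in Ptgs-/- (log2 difference 1.48), and Cd96, a receptor for CD155 (-1.08). Of 15 regulators of activation and exhaustion 3 were higher and 3 lower, among them Prdm1, which encodes Blimp-1 (0.81), and the AP-1 family factor Batf (-1.19). Of 5 Treg genes 0 were higher and 1 lower, Capg (-1.12), with Foxp3 itself at 0.38 and Il2ra at 0.56. Of 6 ligand genes 1 was higher and 2 lower, and of 12 signalling partners 4 were higher and 1 lower, including Ptpn6, the phosphatase SHP-1 (1.34). Medians were 0.16 for the receptors, 0.11 for the regulators, 0.18 for the Treg genes, -0.18 for the ligands and 0.37 for the signalling partners.

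In NK cells 5 of the 10 genes could be compared between Ptgs-/- and Ptgs+/+, and 0 were higher and 1 lower by size, against 13.3% and 10.6% of all 6093 genes. The lower gene was Entpd1, at 26.6 CPM against 44.4 CPM (log2 difference -0.65), but its UMI ratio of Ptgs+/+ to Ptgs-/- had an interval from 0.834 to 3.42 that includes 1. Entpd1 reached 5% of NK cells in Ptgs+/+ alone, the library where it was higher. Neutrophil markers in the NK class moved with it, at a summed 1111 CPM in Ptgs+/+ and 101 CPM in Ptgs-/-, with 1 of 6 and 0 of 6 markers in at least 10% of cells. S100a9 had 256 UMIs in 15 of the Ptgs+/+ cells and 53 UMIs in 6 of the Ptgs-/- cells. Without cells holding Cd79a, C1qa or S100a8 the Entpd1 difference was -0.21, within 1.5-fold. Ctla4 lay within 1.5-fold (-0.54), at 23.0 CPM against 35.7 CPM and a UMI ratio of 1.88 (1.05 to 3.26). For Tnfrsf9 the difference was -0.42 and that ratio 1.46 (1.09 to 1.95). Icos (0.33) and Tox (0.25) also lay within 1.5-fold. Of the related receptors 2 of 12 were higher and 1 lower, and of the regulators 0 of 15 were higher and 1 lower, Tcf7 (-0.91), which encodes the factor TCF-1. Of 4 Treg genes 0 were higher and 3 lower, with a median of -0.83 against 0.03 over all genes compared. These were Il2ra (-1.35), Nt5e, which encodes CD73 (-0.86), and Ikzf2, which encodes Helios (-0.81), and the interval of the UMI ratio left out 1 for Ikzf2 alone. Of 5 ligand genes 0 were higher and 3 lower, with a median of -0.63. They were Cd274 (-0.94) and Pdcd1lg2 (-0.90), which encode the PD-1 ligands, and Lgals3 (-0.63), for which alone that interval left out 1. Of 12 signalling partners 3 were higher and 0 lower, among them Ptpn6 (0.79).

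NK depletion was compared with the same Ptgs-/- library, so the 2 contrasts share it and are not independent. In T cells 6 genes could be compared, and 1 was higher, 1 lower and 4 within 1.5-fold, against 15.6% higher and 15.8% lower of 6172 genes. Pdcd1 was the higher gene, at 83.7 CPM against 24.7 CPM (log2 difference 1.58), and its UMI ratio was 3.43 (1.64 to 7.57). By the mean log2 value per cell that difference was 0.36, within 1.5-fold, and at 1000 UMIs per cell Pdcd1 was in too few cells to be compared. Tnfrsf9 was lower (-1.01), and its UMI ratio of Ptgs-/- to the NK-depleted library was 2.30 (1.46 to 3.77); by the mean log2 value per cell it was at -0.53, and with T and NK cells as 1 class at -0.42, both within 1.5-fold. NK markers within the T cell class moved with it, from 863 CPM and 4 of 10 markers in at least 10% of cells in Ptgs-/- to 389 CPM and 1 of 10, and their part in the result was not tested. The gamma-delta markers stood at 614 and 327 CPM, and without cells holding Trdc or Tcrg-C1 Tnfrsf9 was at -1.17. Ctla4 (-0.42), Icos (-0.34), Tnfrsf4 (-0.41) and Tox (-0.03) lay within 1.5-fold. Of 11 related receptors 2 were higher, Cd96 (1.09) and Cd200r1 (0.94), and 1 lower. Of 15 regulators 4 were higher, with Bach2 at 2.04 and Nr4a3 at 1.13, and 5 lower. Of 6 Treg genes 1 was higher and 1 lower, of 7 ligand genes 1 and 2, and of 11 signalling partners 0 and 1. Tnfrsf9 and Pdcd1 rested on 24 and 23 UMIs in the NK-depleted library.

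The cells labelled NK in the NK-depleted library had higher levels of several of the genes than Ptgs-/- NK cells, and T cell markers moved with them. Of 8 genes that could be compared 6 were higher and 0 lower, against 23.1% and 26.2% of 6910 genes, and the median was 1.64 over these genes and -0.04 over all. Of the 6, Ctla4, Tnfrsf4, Pdcd1 and Havcr2 reached 5% of cells only in the cells labelled NK. In Ptgs-/- NK cells the shares were 4.71% for Ctla4 and 0.784% for Tnfrsf4. Pdcd1 was in 1 and Havcr2 in 3 of those 510 cells. The filter thus favoured a call of higher for these genes. Ctla4 had 97 UMIs in these 45 cells and 44 in the 510 Ptgs-/- NK cells, at 477.5 CPM against 23.0 CPM, a UMI ratio of 18.3 (12.7 to 26.8). Icos was at 881 CPM against 88.3 CPM, with a UMI ratio of 12.7 (10.1 to 16.1). For Tnfrsf4 that ratio was 25.0 (10.9 to 64.3), on 24 and 8 UMIs. The other 3 were Tox (log2 difference 0.73), Pdcd1 on 3 and 1 UMIs, and Havcr2 on 4 and 3 UMIs. The 9 Foxp3 positive cells alone held 75 of the 97 Ctla4, 102 of the 188 Icos, 10 of the 24 Tnfrsf4 and 8 of the 10 Tnfrsf9 UMIs. T cell markers summed to 3757 CPM in these cells and 553 CPM in Ptgs-/- NK cells, and their part in the result was not tested. Without the cells that held Trac, Cd4, Cd8a, Cd8b1 or Foxp3 only 14 were left, and there 4 genes were higher and 1 lower, with Ctla4 at 2.05. With T and NK cells as 1 class, 154 against 724 cells, 4 genes were higher, among them Ctla4 (1.19), Icos (1.18) and Tnfrsf4 (1.07), a comparison in which the share of NK cells itself differs. All 6 Treg genes compared in the labelled NK cells were higher, Foxp3 by 4.37, while Eomes, an NK cell transcription factor, went from 738 UMIs to 0. Of 7 ligand genes 5 were higher and 0 lower, of 12 signalling partners 5 and 3, of 15 related receptors 6 and 6, and of 15 regulators 3 and 6. Only 4 Treg and 5 ligand genes had reached 5% of Ptgs-/- or Ptgs+/+ NK cells. Some of the 6 Treg and 7 ligand genes thus entered only through the cells labelled NK, which favoured a call of higher.

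Havcr2, which encodes TIM-3 (chr11:46454935-46481255, plus strand), a receptor for galectin-9 and phosphatidylserine, was a myeloid transcript in these tumours. T cells held 0, 2, 0 and 18 UMIs, NK cells 2, 3 and 45 in Ptgs+/+, Ptgs-/- and CT26, and the cells labelled NK 4, whereas monocytes and macrophages held 1402, 578, 543 and 1890. That class carried 82.2%, 75.0%, 77.8% and 77.9% of each library's Havcr2 UMIs, and T cells 0%, 0.259%, 0% and 0.742%. It also made up 2360 of 3262, 3184 of 4677, 3108 of 3879 and 5180 of 8987 cells. Its share of UMIs alone therefore does not show a higher level per cell. B cells, the reference class without Havcr2, held 0 UMIs in 23, 44 and 36 cells of the 5555 libraries, at medians of 1131, 1454.5 and 1670.5 UMIs. The 250 bases upstream of the RefSeq start, chr11:46454681-46454930 of GRCm38.p6, plus strand, are shown because this gene differed in most monocyte and macrophage clusters. Capitals mark an AP-1 motif (TGANTCA) and, at the 3′ end, a motif of the myeloid factor PU.1 (GAGGAAGT).
Havcr2: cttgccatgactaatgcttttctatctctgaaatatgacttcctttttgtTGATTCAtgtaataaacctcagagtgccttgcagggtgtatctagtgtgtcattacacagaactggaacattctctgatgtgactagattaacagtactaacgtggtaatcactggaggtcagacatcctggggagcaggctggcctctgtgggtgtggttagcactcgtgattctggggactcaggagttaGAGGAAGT
The PU.1 motif was found in 2.44% of all mouse promoters of this length on either strand, and in no other of the 9 promoters matched to the 10 genes. A match describes the letters only.

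In monocytes and macrophages Havcr2 was at 164.5 CPM in Ptgs+/+, 38.5 CPM in Ptgs-/-, 33.8 CPM in the NK-depleted library and 86.7 CPM in CT26. The shares of cells with a UMI were 35.6%, 14.2%, 12.5% and 23.9%, and 13.0%, 4.02%, 3.80% and 7.80% at 1000 UMIs per cell. Ptgs-/- was lower than Ptgs+/+ by size, with a log2 difference of -1.96 and a UMI ratio of Ptgs+/+ to Ptgs-/- of 4.39 (3.98 to 4.85). The class was made up differently in the 2 libraries: TAM 2, the cluster with the highest level, was 678 of 2360 cells in Ptgs+/+ and 240 of 3184 in Ptgs-/-. Macrophage markers, all 6 of them in at least 10% of cells of both, summed to 4079 and 7650 CPM, and the 5 monocyte markers to 3766 and 3299 CPM. The part of this makeup in the pooled differences was not tested, and values within clusters follow. With NK depletion the level stayed within 1.5-fold of Ptgs-/- (-0.17). Of the 10 genes 3 could be compared in this class and 0 were higher and 3 lower, against 8.46% and 6.57% of 7691 genes. Tnfrsf9, 1 of the 3, reached 5% of cells in Ptgs+/+ alone, in 147 of 2360 cells against 121 of 3184. With NK depletion 2 could be compared and neither passed 1.5-fold, against 1.14% higher and 1.29% lower of 7825 genes.

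Havcr2 was lower in 6 of 7 monocyte and macrophage clusters of Ptgs-/- than of Ptgs+/+ tumours. Of all genes compared 7.96% were lower in Monocytes 1, 6.78% in Monocytes 2, 12.2% in Mono Mac, 7.25% in TAM 1, 11.1% in TAM 2, 13.6% in TAM 3 and 15.2% in TAM 4. The exception was Monocytes 2 (-0.19), and the others ranged from Monocytes 1, the lowest at -1.96, to TAM 1 (-0.97). TAM 2, a tumour-associated macrophage cluster, stood first in all 3 5555 libraries, at 362 CPM in Ptgs+/+, 118 CPM in Ptgs-/- and 176 CPM in the NK-depleted library. The share of TAM 2 cells with a UMI was 63.9%, 29.2% and 45.8%, and the UMI ratio of Ptgs+/+ to Ptgs-/- was 3.20 (2.61 to 3.97). The next class in Ptgs+/+, type 1 conventional DCs (cDC1), was at 139.5 CPM, and its interval did not reach that of TAM 2. In cDC1 Havcr2 had 31, 14 and 34 UMIs, and in cDC2 267, 170 and 107, at 96.1, 33.2 and 30.7 CPM. The cDC2 ratio of Ptgs+/+ to Ptgs-/- was 2.59 (2.13 to 3.16). CCR7+ DCs held almost none, with 1, 1 and 6 UMIs. In CT26 the order was Monocyte 2 (155 CPM), cDC1 (135 CPM), Monocyte 3 (127 CPM) and Monocyte 1 (113 CPM), with counting intervals that overlap between neighbours. Uck2 (r 0.83) and Dock4 (0.83) followed Havcr2 most closely in 5555 tumours.

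**Figure D4:**
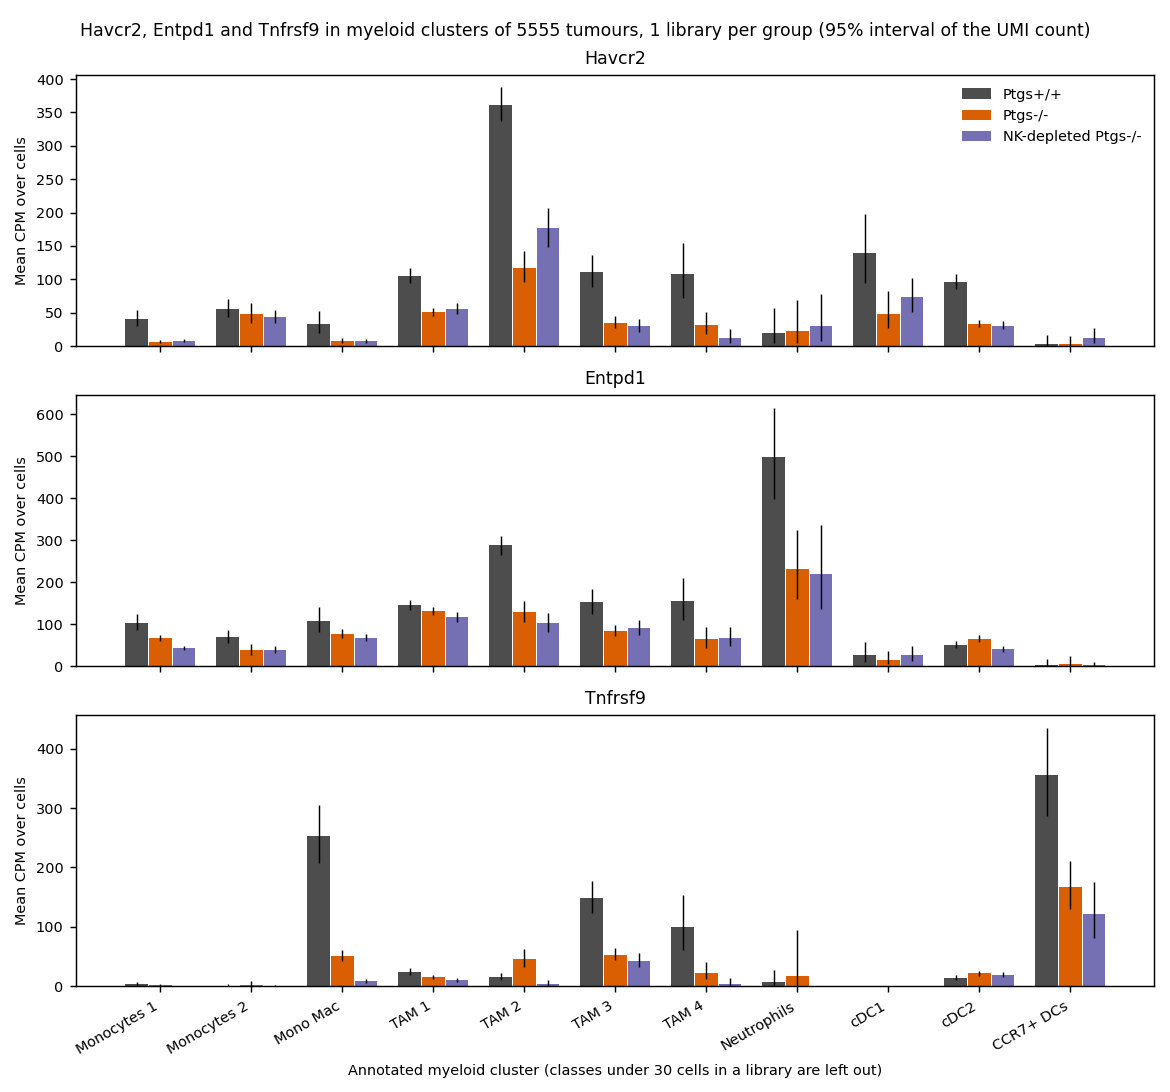
Mean CPM over cells (y axis) of Havcr2, Entpd1 and Tnfrsf9 in myeloid clusters of 5555 tumours (x axis); bars are libraries and error lines the 95% Poisson interval of the UMI count scaled to the mean. The Ptgs+/+ bar is the highest for Havcr2 in every cluster from Monocytes 1 to TAM 4 and in cDC1 and cDC2. For Tnfrsf9 it is the highest in Monocytes 1, Mono Mac, TAM 1, TAM 3, TAM 4 and CCR7+ DCs. The Ptgs-/- bar of Tnfrsf9 is the highest in TAM 2, and in Monocytes 2 and neutrophils on only 3 and 1 UMIs. It also stands above the Ptgs+/+ bar in cDC2.

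Entpd1 was in monocytes and macrophages at 172, 91.5, 67.3 and 99.5 CPM, in 42.4%, 34.1%, 28.1% and 35.1% of cells. Ptgs-/- was lower than Ptgs+/+ by size (-0.87), with a UMI ratio of Ptgs+/+ to Ptgs-/- of 1.72 (1.61 to 1.85). The difference passed 1.5-fold in 5 of 7 clusters, most in TAM 4 (-1.18) and TAM 2 (-1.13), while Mono Mac (-0.45) and TAM 1 (-0.14) stayed within it. In TAM 1 the share was 52.1%, 52.4% and 52.0%, nearly equal across the 5555 libraries. Neutrophils held the highest Entpd1 level in each 5555 library, at 499, 232 and 220 CPM on 86, 34 and 21 UMIs. There too Ptgs-/- was lower (-1.28), with a ratio of 1.83 (1.22 to 2.81), against 19% of all genes lower in that class. Type 2 conventional DCs did not share the pattern, at 51.5, 65.4 and 40.7 CPM, within 1.5-fold between Ptgs-/- and Ptgs+/+ (0.32) and lower with NK depletion (-0.63), as were 3.49% of all genes.

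Tnfrsf9 in macrophages was lower in Ptgs-/- than in Ptgs+/+ in Mono Mac, TAM 3 and TAM 4, and the mean level went the other way in TAM 2. In Mono Mac it was at 253 CPM in Ptgs+/+, 51.6 CPM in Ptgs-/- and 9.10 CPM in the NK-depleted library. These rest on 111, 136 and 28 UMIs, in 31.6%, 7.00% and 3.70% of 57, 243 and 270 cells. The UMIs thus came from few cells, and the intervals of the ratios take each UMI as independent. The log2 difference of Ptgs-/- from Ptgs+/+ was -2.19, a UMI ratio of 3.81 (2.94 to 4.93) in favour of Ptgs+/+. With NK depletion it was lower again (-2.01), with a ratio of Ptgs-/- to the NK-depleted library of 5.76 (3.81 to 8.99), against 3.01% of all genes lower. TAM 3 showed 149, 53.6 and 43.4 CPM, a difference of -1.52 between Ptgs-/- and Ptgs+/+. In TAM 4 the difference was -1.89, at 99.3 and 23.2 CPM on 20 and 12 UMIs, and in TAM 1 it was -0.52, within 1.5-fold. TAM 2 stood at 15.9 CPM in Ptgs+/+ and 45.9 CPM in Ptgs-/- on 33 and 42 UMIs. The log2 difference there was 1.29 and the UMI ratio of Ptgs-/- to Ptgs+/+ 3.12 (1.93 to 5.09), but the shares of cells were near equal, at 3.39% and 3.75%, and 1 of the 9 positive Ptgs-/- cells held 21 of the 42 UMIs. Fewer than 5% of cells being positive in both, this cluster is not counted among those compared. In the NK-depleted library TAM 2 held 4 UMIs. None of the 147 and 121 Tnfrsf9 positive monocytes and macrophages of Ptgs+/+ and Ptgs-/- held a Cd3 UMI, and 2 of 56 did in the NK-depleted library. In CCR7+ DCs Tnfrsf9 was at 356, 167 and 122 CPM, in 61.1%, 29.3% and 35.6% of cells, and at 130 CPM in 30.4% in CT26. The ratio of Ptgs+/+ to Ptgs-/- there was 1.70 (1.24 to 2.35). Of the 5 genes compared in CCR7+ DCs 2 were higher and 2 lower, against 24% and 23.7% of 7849 genes, and the other 3 that passed rested on 8 or fewer UMIs. Those 3, Lag3, Icos and Pdcd1, each reached 5% of cells only in the library where they were higher. In cDC2 1 of 4 was higher, Lag3, and 1 lower, Havcr2, against 10.7% and 7.57% of 8697 genes. Lag3 entered that count through Ptgs-/- alone, at 7.27% of cells against 1.32%, which favoured a call of higher. Tnfrsf9 in cDC2 lay within 1.5-fold (0.52), at 22.0 CPM in Ptgs-/- and 13.9 CPM in Ptgs+/+. Its UMI ratio of Ptgs-/- to Ptgs+/+ there was 1.58 (1.10 to 2.30).

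T cells often held several of the 10 transcripts. At least 2 were seen in 43.9%, 43.5%, 43.1% and 41.1% of T cells in Ptgs+/+, Ptgs-/-, the NK-depleted library and CT26, and at least 3 in 21.2%, 19.6%, 20.2% and 22.8%. At 1000 UMIs per cell the shares with at least 2 were 37.7%, 30.3%, 22.9% and 30.6%, and with at least 3 they were 16.4%, 9.95%, 10.1% and 14.6%. These point values lay further apart than those without thinning. For at least 2 they rest on 23 of 61, 64 of 211, 25 of 109 and 211 of 690 cells. No interval was computed for them, so a difference between libraries at equal depth is not shown. In NK cells at least 2 were seen in 13.9%, 13.1% and 13.0% in Ptgs+/+, Ptgs-/- and CT26, and in 42.2% of the cells labelled NK in the NK-depleted library. Thinned likewise, these were 6.25%, 4.59%, 3.70% and 32.4%. Of T cells with Ctla4, 12 of 15, 56 of 70, 27 of 32 and 144 of 186 also held Icos. Of those with Tnfrsf4, 5 of 6, 32 of 42, 15 of 19 and 111 of 183 also held Ctla4. In CT26, 30 of the 42 T cells with Lag3 held Tnfrsf4. Pdcd1 overlapped with Icos in 8 of 9, 6 of 11, 9 of 11 and 59 of 89 of its cells.

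The CT26 tumours, another line, strain, day and table and so set beside the others without a fold, held UMIs of all 10 genes in both T and NK cells. The Ptgs-/- library did so too, with 1 Tigit UMI in either class. CT26 has the most cells of both classes, 767 T cells and 1346 NK cells. Pdcd1 and Havcr2 in CT26 NK cells came largely from few cells. The 25 NK cells with a Cd8a or Cd8b1 UMI held 28 of the 37 Pdcd1 and 38 of the 45 Havcr2 UMIs, but 28 of the 87 Lag3 UMIs. In the 1170 NK cells with Ncr1 or Klrb1c the shares were 0.256% for Pdcd1, 0.342% for Havcr2, 4.53% for Lag3 and 23.6% for Tnfrsf9. A class of 123 proliferating cells, with a median of 6238 UMIs, held Tnfrsf9 in 43.9%, Icos in 38.2%, Tox in 31.7%, Ctla4 in 30.1%, Lag3 in 22.8% and Pdcd1 in 17.9% of cells, and Tigit in none. Its 15 Cd8a or Cd8b1 positive cells held Ctla4 and Tnfrsf9 in 14 each, Lag3 in 13, Havcr2 in 12 and Pdcd1 in 11. Its 16 Foxp3 positive cells held Ctla4 in 16 and Tnfrsf4 in 15, with 114 of the 156 Tnfrsf4 UMIs. CCR7+ DCs of CT26 also held Pdcd1, in 16.1% of cells on 38 UMIs, and only 1 of the 18 cells held a Cd3 UMI. By summed UMIs the Pdcd1 level was 101 CPM (85.3 to 119.4) in CT26 T cells and 72.5 CPM (51.3 to 99.5) in CCR7+ DCs, and the intervals overlap. CCR7+ DCs of the 5555 tumours held 4, 1 and 4 Pdcd1 UMIs.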

How the data were processed

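The authors deposited cell-by-gene tables of log2 values, 1 for the 5555 libraries and 1 for CT26, with cell annotations. Cell Ranger 3.0.2, Partek and mm10 are listed in the submitters' processing notes. The deposited log2 values were checked to be log2(CPM + 1) per cell, whose CPM sum in each cell was within 0.00245% of 1000000. UMIs were recovered as multiples of the commonest nonzero linear value of a cell, taken as 1, 2 or 3 UMIs, whichever made most values whole, and 99.9% of values were whole to within 0.1 UMI plus 0.01%. No gene of the 10 had fractional values. Bone marrow culture files were not used.

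Python 3.11.15 with numpy 2.4.6, scipy 1.17.1 and pandas 2.3.3 gave mean CPM over cells, UMI sums with Poisson intervals, shares with Clopper-Pearson intervals, and UMI ratios with conditional binomial intervals, all 95%. Differences are of log2(mean CPM + 5), for genes in at least 5% of cells of either library and classes of at least 30 cells; a median shift of all genes above 0.1 was subtracted (with NK depletion 0.11 for NK cells and 0.19 for B cells; for Ptgs-/- over Ptgs+/+ 0.13 for TAM 3 and 0.19 for neutrophils). The calculation of differences was tested on simulated data with known folds. All 10 genes are named, with the 2 genes most correlated with each, and the largest differences of each of 5 context lists. The genes and lists were chosen with earlier results of these data known. The authors' cell classes were used, no doublet caller was run, free RNA was not subtracted, and each cell's barcode was compared across libraries. PCR duplicates are collapsed by the UMI. Alternatives covered pseudocounts of 1 and 20, detection filters, depth, and subsets of cells.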

Additional observations from a re-analysis of the deposited data

How the results depend on the processing

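Small counts limit every difference between lymphocytes, and no paired analysis was possible because each group is 1 library; leaving out a replicate was likewise not possible. Of 110 counts of genes recomputed under other settings 79 stayed within 1.5 times of the count given and 31 did not, and of 326 differences of single genes 305 stayed within their counting interval and 21 moved; 0 reversed. The cause was not tested where a count moved. T cells, Ptgs-/- over Ptgs+/+ (1 higher, 2 lower): 3 were higher with no filter on detection, 0 higher without cells holding Trdc or Tcrg-C1, and 0 higher and 0 lower with T and NK cells as 1 class. T cells with NK depletion (1 higher, 1 lower): 0 higher and 0 lower by the mean log2 value per cell, 2 lower by summed UMIs, 2 higher and 2 lower with no filter, 0 higher when thinned to 1000 UMIs, 2 lower without cells holding Trdc or Tcrg-C1, and 4 higher and 0 lower with both classes as 1. NK cells, Ptgs-/- over Ptgs+/+ (0 higher, 1 lower): 2 were lower with a pseudocount of 1, by summed UMIs, with no filter and in cells with a lineage UMI; 0 were lower with a pseudocount of 20, by the mean log2 value, in genes seen in at least 10% of cells, without cells holding Cd79a, C1qa or S100a8, and with both classes as 1; and 1 was higher and 0 lower when thinned. Cells labelled NK after NK depletion (6 higher, 0 lower): 3 higher and 1 lower by the mean log2 value and when thinned, and 1 lower by summed UMIs, in cells with at least 500 genes, and without cells holding Trac, Cd4, Cd8a, Cd8b1 or Foxp3. The settings that drop cells by Trac or by Trdc, and the joined class, were chosen after seeing the data. Only 2 of these cells held a lineage UMI, so that setting gave no value there. Of 160 shares of cells 72 moved beyond their interval when thinned to 1000 or 1500 UMIs per cell.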
